A study of Homo sapiens with 6 samples.

Results

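Mitochondrial ribosomal protein genes encode the proteins of the ribosome that works inside mitochondria. They were taken here as the genes whose probe sets carry a single platform symbol of MRPL or MRPS followed by digits and an optional letter, with pseudogenes and antisense genes left out. The rule found 75 genes, 48 with MRPL symbols (large subunit) and 27 with MRPS symbols (small subunit), among 19775 genes with a probe set of their own. They were read by 140 of 41091 single-symbol probe sets. Another 6 probe sets were left out by the rule: 4 shared with a second gene or pseudogene, which name MRPL51, MRPL53, MRPS24 and MRPS31P5, and 1 each for MRPL20-AS1 and MRPL45P2. MRPS36 is read under its other symbol KGD4, is now known as a subunit of the 2-oxoglutarate dehydrogenase complex, and is no member.

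RNA came from RL, an established human B lymphoid cell line that carries t(14;18), the translocation typical of follicular lymphoma. The same line was grown in suspension and collected in exponential growth, or grown as multicellular aggregates of lymphoma cells (MALC) and collected after 10 days. Neither group was treated, and each was represented by 3 samples of total RNA, numbered 1 to 3, on 1 Affymetrix U133 Plus array each. Aggregation, time in culture and growth phase differ together between the groups and cannot be told apart. Nothing in the labels ties the samples to separate cultures. The p-values therefore cover the spread among these arrays alone, and that spread may be technical. In bulk RNA, fewer cells of a type and less RNA per cell cannot be told apart.

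The mitochondrial ribosome has a large subunit, which joins amino acids, and a small subunit, which reads the messenger RNA. It translates only the few messages of the mitochondrial genome, all of which encode subunits of the respiratory chain and ATP synthase. Its RNAs come from the mitochondrial genome, whereas all its proteins are encoded in the nucleus, made in the cytosol and imported. Some of these proteins are related to bacterial ribosomal proteins and others are found only in mitochondria.

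The arrays had like medians (80.7 to 81.7 signal units), and their number limits the precision. Samples 2 and 3 lay closest together in both groups, with Pearson correlations across kept probe sets of 0.998 in MALC and 0.998 in suspension, against 0.991 to 0.992 for sample 1 with either. The 5 B cell markers measured (MS4A1, CD79A, CD79B, PAX5 and CD22) all passed the filter on low signals, with sums of 27829 to 31909 in MALC and 28004 to 33433 in suspension. Sums of the 3 markers each of T cells, monocytes and epithelium were at most 249, and those of 3 fibroblast markers were 401 to 448 in MALC and 456 to 761 in suspension, where COL1A2 reached 346.6 on 1 array. The control probe sets of ACTB, whose 3′ over 5′ signal tells of RNA length, had ratios from 1.22 to 1.33 on MALC arrays and from 1.31 to 1.54 on suspension arrays. The same ratio for GAPDH separated the groups, with 1.01 to 1.02 on MALC arrays and 1.04 to 1.06 on suspension arrays. The part of these markers and ratios in the results was not tested.

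The comparison of MALC with suspension asked how growth as aggregates went with expression in the same line. All 75 genes passed the filter, each represented by its brightest probe set. In MALC, 59 of the 75 fell, 1 rose (MRPL10) and 15 did not pass the test (limma, Benjamini-Hochberg adjusted p under 0.05 over all 13765 genes tested). Over all genes tested, 23.7% were called lower and 19% higher (42.7% in either direction). The median change of the members was -0.44 on the log2(signal + 16) scale, or 73.8% of the suspension level, against -0.06, or 95.7%, for all genes. Of the members, 71 had a change below 0 (61.5% of all genes), and 27 fell by 0.5 or more on the log2 scale (8.86% of all genes). The 3 MALC values all lay under the 3 suspension values for 65 members and all above for 1, where 33.8% and 23.1% of all genes did so.

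With samples 2 and 3 of each group averaged into 1, the median of the members was -0.45 but 30 of 75 were called lower and 0 higher, and 8.08% of all genes were called lower. Of the members described below, MRPL10, MRPL11, MRPL14, MRPL23, MRPL39, MRPL58, MRPS9, MRPS18A, MRPS22 and MRPS31 were not called in that fit, nor were the related genes GADD45GIP1, DAP3, KGD4, METTL15, YBEY, NOA1, MTIF3, MTRFR, SP1, RPLP2 and RPL31. The count of falls among the 75 lay between 46 (without MALC 2) and 61 (without MALC 1) when single samples were left out. The share of all genes called lower moved with it, at 15.3% without MALC 2 and 26.4% without MALC 1. When each array's median over the genes was made equal, 64 members were lower and 1 higher, while the split of all genes moved from 23.7% lower and 19% higher to 34.2% and 15.7%.

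The falls were shared by both subunits. Of the large subunit genes, 38 of 48 fell, 1 rose and 9 did not pass the test, with a median of -0.43 and a range from -1.07 to 0.39. Of the small subunit genes, 21 of 27 fell, 0 rose and 6 did not pass the test, with a median of -0.47 and a range from -0.83 to 0.02. The median level in MALC was thus 74.0% of suspension for the large and 72.1% for the small subunit. MRPS30 and MRPS18A carry small subunit symbols, but their proteins sit in the large subunit; with both moved, 40 of 50 and 19 of 25 genes fell and the medians were the same.

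**Figure D1:**
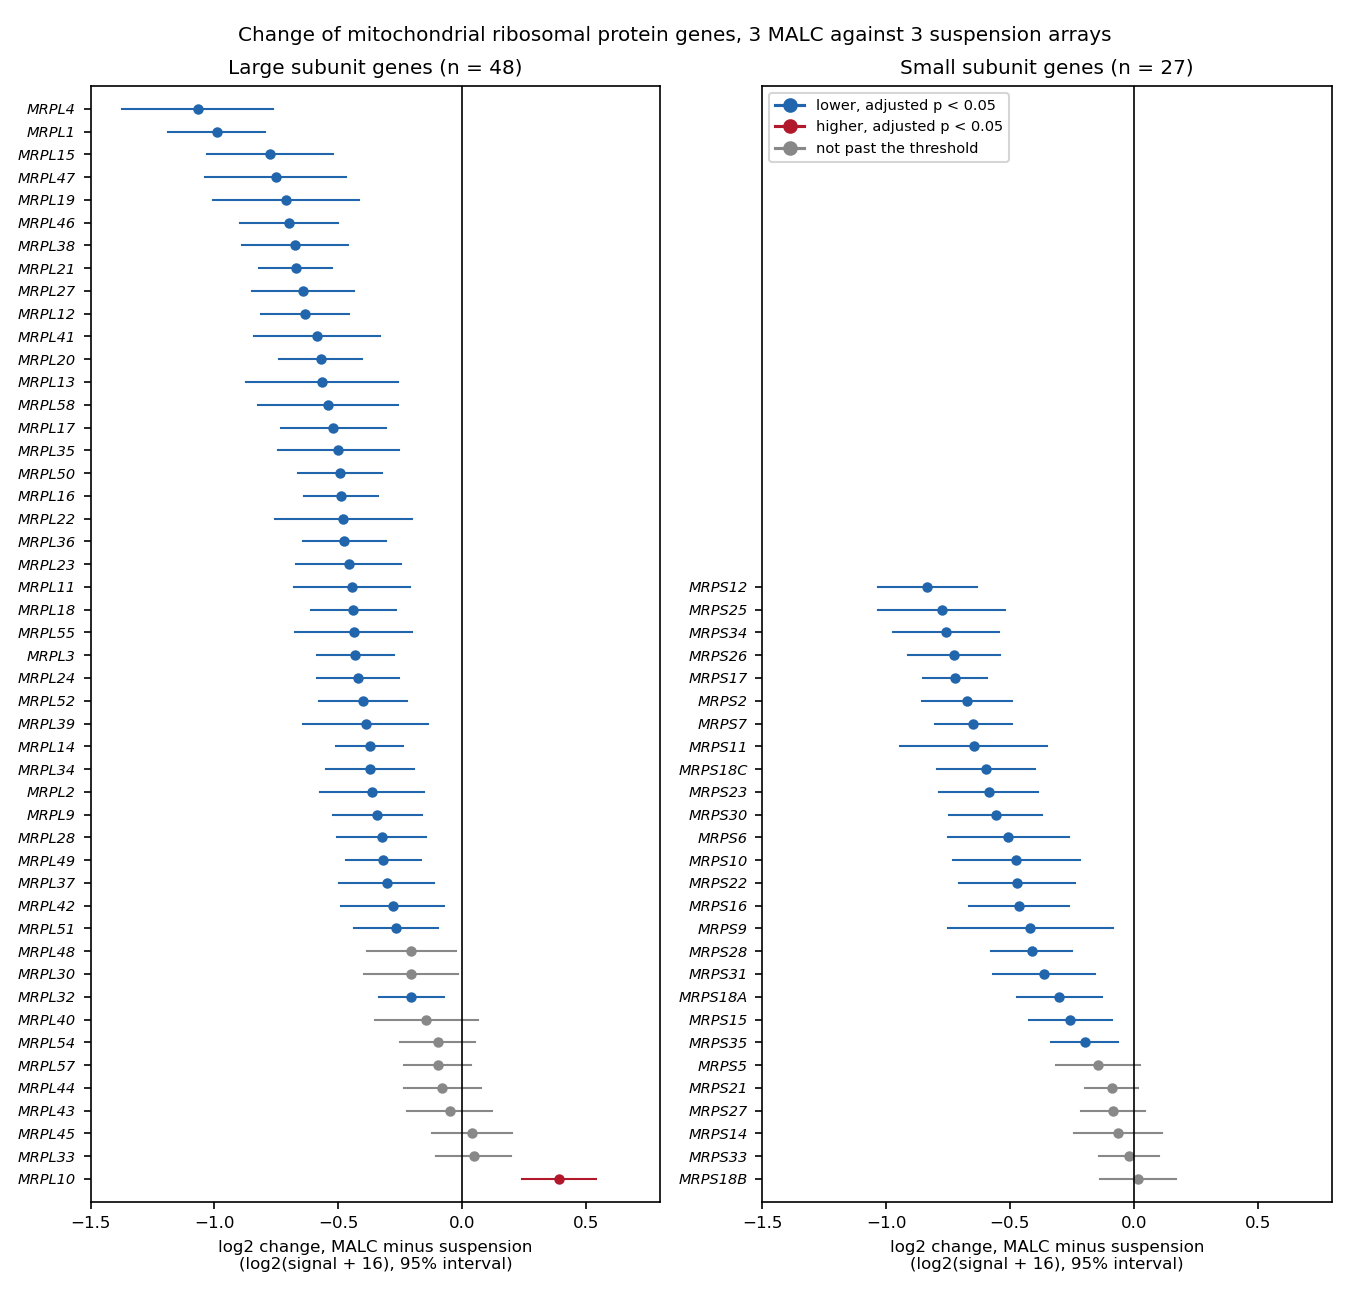
Change of each gene in MALC against suspension on the log2(signal + 16) scale (x axis), with its 95% interval from limma, for the 48 large subunit genes (left) and 27 small subunit genes (right). Most points lie left of 0 in both panels, from -1.07 for MRPL4 upward; MRPL10 at 0.39 is the only gene called higher.

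Of the 46 members related to bacterial ribosomal proteins, 39 fell and 1 rose, with a median of -0.47. Of the 29 found only in mitochondria, 20 fell and 0 rose, with a median of -0.36. In the large subunit the medians were -0.48 for 29 bacterial-type genes, of which 26 fell, and -0.30 for 19 mitochondria-specific genes, of which 12 fell. In the small subunit they lay close together, at -0.46 for 17 bacterial-type genes (13 fell) and -0.51 for 10 mitochondria-specific genes (8 fell). These differences between classes were not tested.

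The promoters of members were read from a RefSeq promoter table (GRCh38.p14), which covers 250 bases before to 50 bases after each gene's start; 67 of the 75 members matched. No entry matched MRPL2, MRPL10, MRPL13, MRPL15, MRPL21, MRPL23, MRPL35 or MRPS28. Letters of 4 motifs, written for factors known to control nuclear genes for mitochondria or growth, were searched on both strands of the first listed start. The 5 promoters below are shown because they carry these letters in genes that fell strongly (MRPL46, MRPS12, MRPS34) and in a pair of related genes of which 1 fell and the other was not called (MRPS18C, MRPS18B). Other strong falls had none of the 4 motifs (MRPL4, MRPL1, MRPS25, MRPS17 and MRPL19) or had the ETS letters (MRPL47 and MRPS26). Capitals mark the matched letters: CCGGAAG or its reverse complement CTTCCGG in MRPS12, MRPS34 and MRPS18C (ETS family, which includes GABPA), AAGATGGCG in MRPL46 and MRPS18B (YY1), and CACGTG in MRPS18C (E-box, bound by MYC and others).

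MRPL46, chr15:88467339-88467638, minus strand: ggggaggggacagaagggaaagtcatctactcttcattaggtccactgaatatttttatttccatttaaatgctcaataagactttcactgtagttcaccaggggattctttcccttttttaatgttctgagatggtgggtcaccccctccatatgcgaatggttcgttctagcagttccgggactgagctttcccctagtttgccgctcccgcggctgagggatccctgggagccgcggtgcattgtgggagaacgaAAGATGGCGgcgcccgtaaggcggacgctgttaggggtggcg
MRPS12, chr19:38930694-38930993, plus strand: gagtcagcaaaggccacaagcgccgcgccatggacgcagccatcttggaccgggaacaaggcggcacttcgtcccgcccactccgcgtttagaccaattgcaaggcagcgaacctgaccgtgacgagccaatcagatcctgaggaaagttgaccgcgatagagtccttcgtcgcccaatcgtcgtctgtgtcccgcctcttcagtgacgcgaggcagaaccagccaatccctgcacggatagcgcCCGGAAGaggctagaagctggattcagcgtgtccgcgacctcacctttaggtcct
MRPS34, chr16:1773085-1773384, minus strand: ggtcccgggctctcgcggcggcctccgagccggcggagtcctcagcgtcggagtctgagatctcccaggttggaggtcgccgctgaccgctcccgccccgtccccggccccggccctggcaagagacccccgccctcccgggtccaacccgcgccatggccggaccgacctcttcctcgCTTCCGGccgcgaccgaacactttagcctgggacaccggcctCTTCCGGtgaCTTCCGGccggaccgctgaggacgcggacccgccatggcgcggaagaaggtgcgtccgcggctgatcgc
MRPS18C, chr4:83455808-83456107, plus strand: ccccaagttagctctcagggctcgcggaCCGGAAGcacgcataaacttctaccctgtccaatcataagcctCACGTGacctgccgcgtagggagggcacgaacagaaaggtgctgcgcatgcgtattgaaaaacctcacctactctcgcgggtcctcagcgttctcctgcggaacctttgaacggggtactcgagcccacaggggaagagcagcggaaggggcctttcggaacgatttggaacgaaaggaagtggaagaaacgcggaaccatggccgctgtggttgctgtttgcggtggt
MRPS18B, chr6:30617590-30617889, plus strand: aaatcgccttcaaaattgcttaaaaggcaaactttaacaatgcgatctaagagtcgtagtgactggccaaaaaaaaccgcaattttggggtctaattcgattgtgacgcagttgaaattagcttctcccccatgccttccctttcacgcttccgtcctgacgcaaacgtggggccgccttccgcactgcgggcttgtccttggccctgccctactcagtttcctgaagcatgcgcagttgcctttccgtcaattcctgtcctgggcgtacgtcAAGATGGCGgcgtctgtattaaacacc

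The ETS letters CCGGAAG stood in 28 of 67 member promoters (41.8%), against 18% of the 10941 promoters of genes tested and 10.7% of all 27305 in the table. The YY1 letters AAGATGGCG stood in 12 (17.9%), against 3.65% and 1.85%. The letters of the NRF1 motif stood in 8 (11.9%, against 10.9% and 6.28%) and the E-box CACGTG in 6 (8.96%, against 9.9% and 7.43%), which is near the share among genes tested. Members with and without the ETS letters had medians of -0.45 and -0.44, and 20 of 28 and 32 of 39 of them fell. Members with and without the YY1 letters had medians of -0.48 and -0.43, and 11 of 12 and 41 of 55 fell. MRPS18B is the member with the YY1 letters that was not called. Of the 8 members with the NRF1 letters, 4 fell (MRPL14, MRPL17, MRPL36 and MRPS9), with a median of -0.29 against -0.44 for the other 59. MRPS9 was close to the threshold (adjusted p = 0.0479) and lost its call with no filter (0.0554) and when any sample but MALC 1 was left out (adjusted p = 0.0522 to 0.144). A match is a description of letters, not of a bound site, and these shares were not tested.

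Among the large subunit genes, MRPL4 changed most. Its protein lines part of the tunnel through which the new chain leaves the ribosome. MRPL4 read 1489, 1118 and 1112 signal units in MALC 1, 2 and 3, and 2922, 2504 and 2376 in suspension 1, 2 and 3. No MALC value came near a suspension value, and the level in MALC was 47.7% of that in suspension (log2 change -1.07, SE 0.131, adjusted p = 0.000863). All 3 of its probe sets fell, by 0.81 to 1.17 on the log2 scale.

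MRPL1 forms the mobile stalk beside which spent transfer RNA leaves. Its signals were 778, 761 and 658 in MALC and 1397, 1510 and 1496 in suspension, so that MALC held 50.3% of the suspension level (log2 change -0.99, SE 0.084, adjusted p = 0.000284). These 2 genes stood somewhat apart from the other large subunit genes, whose largest fall was 0.78.

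Next came MRPL15, MRPL47 and MRPL19, all bacterial-type proteins. MRPL15, a protein of the subunit's core, read 3318, 2706 and 2550 in MALC against 5383, 4747 and 4526 (log2 change -0.78, adjusted p = 0.00142). MRPL47, which sits at the rim of the tunnel exit, read 4299, 3376 and 3092 against 6592, 5751 and 5684 (-0.75, adjusted p = 0.00247). MRPL19 read 1259, 992 and 897 against 1857, 1607 and 1675 (-0.71, adjusted p = 0.00365). Of the 3 kept probe sets of MRPL19, 2 were called lower, and a dim one was at 0.14 and not called. The change of MRPL19 lay between -0.85 and -0.29 over the 19 alternatives and was called in each. In all 3 genes MALC 1 was the highest of the aggregates and still lay under every suspension array.

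MRPL46 and MRPL38 belong to the central protuberance, the crest of the large subunit that meets the small one. MRPL46 read 1110, 1003 and 937 in MALC and 1769, 1636 and 1575 in suspension (log2 change -0.70, SE 0.085, adjusted p = 0.000824). MRPL38 fell by 0.67 (adjusted p = 0.00122). MRPL46 starts 320 bases from MRPS11, a gene of the small subunit's platform that is read the other way, and MRPS11 fell as well, with 1467, 1305 and 1147 against 2417, 1915 and 1845 (log2 change -0.65, adjusted p = 0.00551).

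Members at the stalk that draws translation factors to the ribosome included falls and the only gene called higher. MRPL12 forms the flexible stalk itself, MRPL10 ties it to the ribosome, and MRPL11 lies at its base. MRPL12 read 2450, 2366 and 2059 in MALC and 3649, 3483 and 3531 in suspension, a fall to 64.5% (log2 change -0.63, SE 0.076, adjusted p = 0.000807), and both its probe sets fell. MRPL11 fell too, with 1773, 1603 and 1444 against 2441, 2086 and 2047 (-0.44, adjusted p = 0.01).

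MRPL10 went the other way. Its signals were 2219, 2365 and 2339 in MALC and 1850, 1717 and 1702 in suspension, so every aggregate lay above every suspension array (131.2% of suspension, log2 change 0.39, SE 0.064, adjusted p = 0.00254). It was read by 1 probe set only. With samples 2 and 3 averaged the change was 0.36 and did not pass the test (adjusted p = 0.0757); over all alternatives the change lay between 0.32 and 0.46.

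MRPL3, a protein of the core near the catalytic centre, read 8930, 7879 and 7521 in MALC and 11249, 10653 and 10826 in suspension (log2 change -0.43, adjusted p = 0.00196). MRPL58, a hydrolase built into the large subunit that frees chains from stalled ribosomes, read 1436, 1142 and 1102 against 2007, 1708 and 1640 (-0.54, adjusted p = 0.00961). MRPL21 fell with little spread, from 4881, 4748 and 4692 to 3177, 3026 and 2778 (-0.67, SE 0.063, adjusted p = 0.000379). None of these 3 genes had overlapping groups.

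The 9 large subunit genes that did not pass the test were MRPL48, MRPL30, MRPL40, MRPL54, MRPL57, MRPL44, MRPL43, MRPL45 and MRPL33. MRPL45, which helps to hold the ribosome at the inner membrane, read 1097, 1118 and 1136 in MALC within the suspension range of 1041 to 1160 (log2 change 0.04, 95% interval -0.12 to 0.20). MRPL33 read 3060, 2948 and 3045 within 2793 to 3155 (0.05, 95% interval -0.11 to 0.20). These intervals leave out a fall of the members' median size for both genes. MRPL48 lay nearest to the threshold (-0.21, adjusted p = 0.0641), and it was called lower with the sample number as a block.

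MRPS12, a protein of the decoding centre that bears on the accuracy of reading, fell most in the small subunit. It read 3093, 2876 and 2601 in MALC and 5586, 4877 and 4837 in suspension, or 56.1% of the suspension level (log2 change -0.83, SE 0.085, adjusted p = 0.000477). Of its 4 kept probe sets 3 fell, and all had changes below 0. MRPS12 starts 181 bases from SARS2, the mitochondrial seryl-tRNA synthetase gene read the other way, which fell by 0.34 (adjusted p = 0.00802).

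MRPS17, a bacterial-type protein that binds ribosomal RNA, had the tightest arrays among these falls. It read 2668, 2649 and 2548 in MALC and 4529, 4199 and 4290 in suspension (60.6% of suspension, log2 change -0.72, SE 0.056, adjusted p = 0.000222). MRPS2 and MRPS7, 2 further bacterial-type proteins, fell by 0.67 and 0.65 (adjusted p = 0.000707 and 0.000496).

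MRPS25, MRPS34 and MRPS26 have no bacterial relative and fell about as much. MRPS25 read 1534, 1210 and 1143 in MALC against 2261, 2230 and 2148 (log2 change -0.78, adjusted p = 0.00142). MRPS34 read 2240, 1845 and 1760 against 3268, 3304 and 3291 (-0.76, SE 0.093, adjusted p = 0.000849). MRPS26 read 1306, 1268 and 1172 against 2251, 2034 and 1940 (-0.72, adjusted p = 0.000611). In MRPS34 the 3 suspension arrays were almost equal, and the aggregates spread over a wider range below them.

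The 3 genes of the MRPS18 family, relatives of 1 bacterial protein that are built into different places of the ribosome, differed in size of change. MRPS18C read 2641, 2427 and 2150 in MALC and 3836, 3562 and 3517 in suspension (log2 change -0.60, SE 0.085, adjusted p = 0.00142). MRPS18A read 870, 801 and 792 against 1072, 993 and 979 (-0.30, adjusted p = 0.0135), and it did not pass the test without MALC 2 or without MALC 3 (adjusted p = 0.0607 and 0.0516). MRPS18B read 3282, 2932 and 2972 against 3155, 3008 and 2910, with full overlap (0.02, 95% interval -0.14 to 0.17, adjusted p = 0.858). The intervals of MRPS18C (-0.79 to -0.40) and MRPS18B did not meet; the difference between the genes was not tested. Both probe sets of MRPS18B lay within 0.02 of 0 on the log2 scale, and both of MRPS18A and both of MRPS18C fell.

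The other small subunit genes that did not pass the test were MRPS5, MRPS21, MRPS27, MRPS14 and MRPS33, with changes of -0.15 to -0.02. MRPS27, which has the repeats of an RNA-binding protein family, was at 94.4% of suspension, and MRPS33 at 98.7%. Across both subunits, MRPL33, MRPL40, MRPS14, MRPS18B and MRPS27 were called in none of 19 alternative fits, and MRPL44, MRPL45 and MRPS33 in none of the 18 that tested them. Of the 59 falls, 28 were called in every such fit that tested them, 13 in 19 fits and 15 in 18. The choice of the dimmest kept probe set is not among these fits; with it, 7 of the 28 were not called (MRPL41, MRPL47, MRPS11, MRPS12, MRPS23, MRPS25 and MRPS26).

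**Figure D2:**
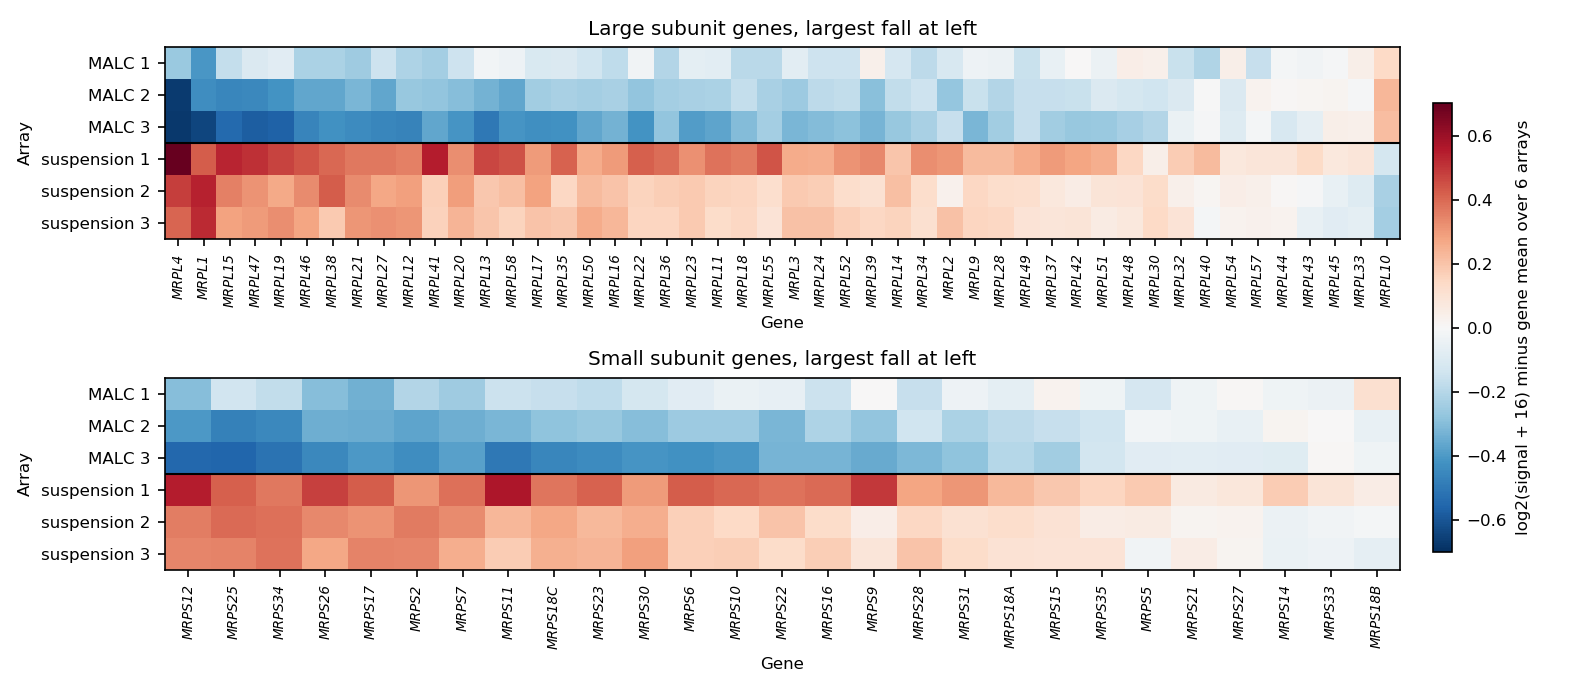
Level of each gene (columns, largest fall at left) on each of the 6 arrays (rows), as log2(signal + 16) minus the gene's mean over the 6 arrays; blue is lower and red is higher. Suspension 1 is the reddest row and MALC 3 mostly the bluest, and MRPL10 at the right of the upper panel has the reverse pattern.

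The arrays of a group were not alike in these genes. Relative to each gene's mean over the 6 arrays, the median large subunit gene was at -0.11, -0.23 and -0.31 in MALC 1, 2 and 3, and at 0.31, 0.15 and 0.15 in suspension 1, 2 and 3. For the small subunit the values were -0.12, -0.25 and -0.35 in MALC, and 0.37, 0.15 and 0.17 in suspension. Both subunits gave the arrays the same places, with suspension 1 at the top and MALC 3 at the bottom.

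Suspension 1 was the highest of its group in 69 of 75 members, against 51.2% of all genes. MALC 1 was the highest of its group in 62 members (44.2% of all genes), and MALC 3 the lowest in 63 (35.9%). The members' median SD was 0.115 within MALC and 0.0847 within suspension on the log2 scale, against 0.087 and 0.0789 for all genes. A spread shared by many members in this way means that they are not independent of each other, and the count of falls is not a count of separate observations.

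Of the 140 probe sets, 135 passed the filter. In a fit with each kept probe set as its own row, 85 fell, 6 rose and 44 did not pass the test, where 20.4% of all kept probe sets were called lower and 21.2% higher. Among the 34 members with more than 1 kept probe set, the changes had the same sign in 23, and in 9 every probe set fell. MRPS22 is an example, with 4 probe sets that fell by 0.45 to 0.47. The other 41 members rest on 1 kept probe set.

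Among the members' probe sets, those with low signals were called lower less often. Of the 93 kept probe sets with a mean signal of at least 500, 71 fell and 1 rose; of the 42 below, 14 fell and 5 rose, and 23 did not pass the test. The limit of 500 was chosen after the values were seen. The shares of all kept probe sets on either side of it were not worked out. Whether this split is particular to the members was not tested. In MRPL50, MRPS30 and MRPS31 the probe sets were called in opposite directions. MRPS31 fell in its 2 bright probe sets (-0.36 and -0.66), whereas another with signals of 216, 225 and 232 in MALC and 148, 145 and 124 in suspension rose by 0.64 (adjusted p = 0.000995). Without MALC 2 or without MALC 3, MRPS31 did not pass the test (adjusted p = 0.059 and 0.0529). MRPS30 fell in its brightest probe set, from 3286, 3193 and 3262 to 2456, 2171 and 2002 (-0.56), and rose by 0.58 in a dim one. MRPL50 fell in 2 probe sets (-0.49 and -0.54) and rose by 0.37 in a dim one. MRPS5 and MRPL30 were not called by their brightest probe sets, and each had 1 dim probe set that rose, by 0.60 and 0.32. MRPL43 was not called by its brightest probe set either (-0.05), but a dim one fell by 0.52 (adjusted p = 0.000887). With the mean of its probe sets, or without those marked _s_at or _x_at, MRPL43 was called lower. Which transcript parts these probe sets read was not analysed here. With the mean of its probe sets, MRPS30 was at 0.05 (adjusted p = 0.563), and the calls of MRPL50, MRPS31, MRPL23 and MRPL39 were lost. MRPL23 and MRPL39 fell in their brightest probe sets (-0.46 and -0.39), but each had a dim one at 0.08 and 0.28 that did not pass the test. MRPL39 also lost its call when any sample other than MALC 1 and suspension 2 was left out (adjusted p = 0.0512 to 0.0884).

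**Figure D3:**
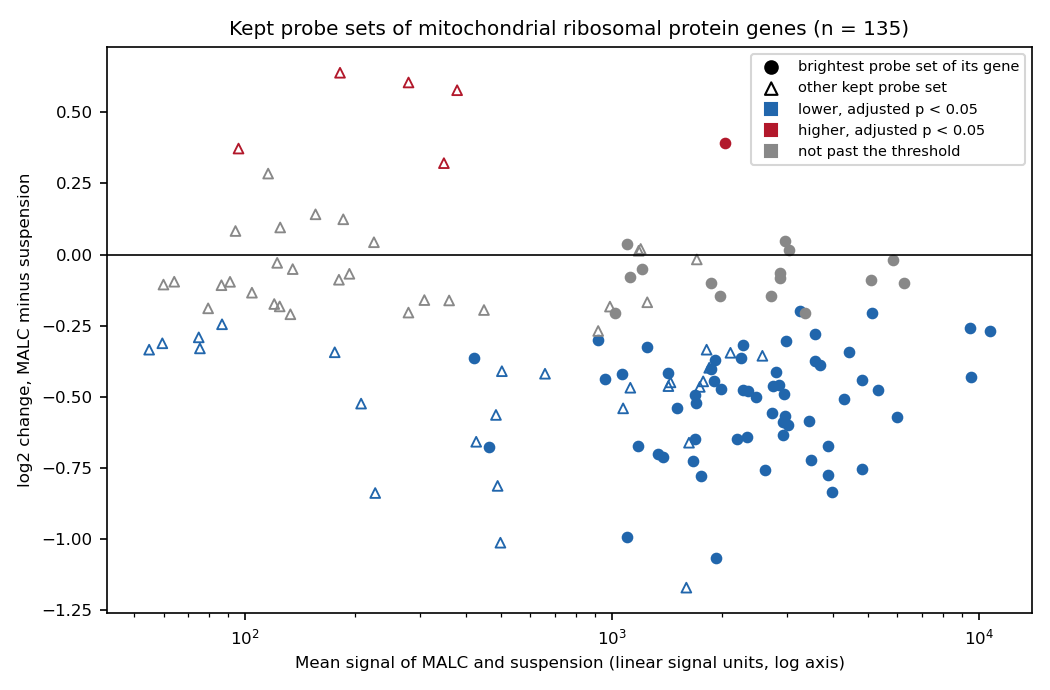
Change of each of the 135 kept probe sets (y axis, log2 scale) against its mean signal (x axis, log axis); filled circles are the probe sets that stand for their gene, open triangles the others. The 5 red triangles, probe sets that rose, all lie under a signal of 500, and the only red circle is MRPL10.

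Genes that work with the mitochondrial ribosome were set beside the members. For the counts below, 23.7% of all genes tested were called lower and 19% higher. Of 5 genes listed here as mitochondrial ribosomal proteins with other symbols, NDUFAB1 among them, 4 fell and 0 rose, with a median of -0.25. KGD4, listed with them for its former symbol, makes this 5 of 6 with a median of -0.23. NDUFAB1, the mitochondrial acyl carrier protein, fell by 0.36 (adjusted p = 0.00114). GADD45GIP1, of the large subunit, fell by 0.30 (adjusted p = 0.00988), DAP3, a GTP-binding protein of the small subunit, by 0.25 (adjusted p = 0.0222), and KGD4 by 0.22 (adjusted p = 0.0158). These falls were smaller than the members' median, and the count of 5 dropped to 3 without MALC 2, 2 without MALC 3 and 1 without suspension 2. Of all genes tested, 15.3%, 16.7% and 17.9% were called lower in those fits, so with 6 genes the count of 1 is near that share. DAP3 and KGD4 lost their calls in each of these 3 fits (adjusted p = 0.0506 to 0.0835 for DAP3 and 0.0598 to 0.0673 for KGD4), and GADD45GIP1 without suspension 2 (adjusted p = 0.0507).

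Of 26 tested assembly factors of the mitochondrial ribosome, 16 fell and 3 rose, with a median of -0.33. MPV17L2, an inner membrane protein needed for assembly, read 394.1, 289.4 and 269.2 in MALC and 666.3, 595.2 and 606.2 in suspension (log2 change -0.95, adjusted p = 0.00144). MTG1, a GTPase of the large subunit's assembly, fell by 0.91 (adjusted p = 0.000812), and MRM3, which methylates the large ribosomal RNA, by 0.83 (adjusted p = 0.00096). The 3 that rose were METTL15 (0.40) and YBEY (0.34), which act on the small subunit's RNA, and NOA1 (0.22), a GTPase. With the mean of its probe sets METTL15 was at 0.09 (adjusted p = 0.194). NOA1 lost its call when MALC 2, MALC 3, suspension 2 or suspension 3 was left out (adjusted p = 0.0825 to 0.114).

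Of 14 translation factors, 9 fell and 2 rose, with a median of -0.49. GFM1, the elongation factor that moves the ribosome along, read 1773, 1319 and 1229 in MALC and 2973, 2703 and 2739 in suspension (log2 change -0.97, adjusted p = 0.00122). TACO1, an activator of translation, fell by 0.74 and SLIRP, which steadies mitochondrial messages, by 0.69. TUFM, the elongation factor that brings in transfer RNA, fell by 0.56 (adjusted p = 0.0025). MTIF3, an initiation factor, rose instead, from 1126, 1261 and 1309 to 1569, 2076 and 2122 (0.62, adjusted p = 0.00583). MTRFR, a rescue factor, rose by 0.57 (adjusted p = 0.0276) and lost its call when any sample but suspension 1 was left out (adjusted p = 0.0508 to 0.0907).

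Of 18 genes of mitochondrial transcription and RNA processing, 12 fell and 0 rose, with a median of -0.57. PNPT1, an RNA-degrading enzyme, fell by 0.96 (adjusted p = 0.00152). TFAM packs mitochondrial DNA and takes part in its transcription. It read 1950, 1535 and 1382 in MALC and 2919, 3141 and 3256 in suspension (log2 change -0.94, adjusted p = 0.00106). TFB2M, the initiation factor of mitochondrial transcription, fell by 0.93 (adjusted p = 0.000436), and POLRMT, the polymerase, by 0.72 (adjusted p = 0.00129). TFAM was read by a probe set that can match several transcripts; without such probe sets its change was -0.24 (adjusted p = 0.152).

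Of 9 tested regulators of nuclear genes for mitochondria, 3 fell (33.3%) and 2 rose (22.2%). With 9 genes, these shares are near the 23.7% lower and 19% higher of all genes tested. The coactivators PPARGC1B and PPRC1 both fell by 1.22 (adjusted p = 0.00106 and 0.000343), PPRC1 from 1137, 1384 and 1349 to 607, 543.3 and 483. ESRRA, a nuclear receptor that they act with, fell by 0.69 (adjusted p = 0.00169). NRF1, a factor that binds promoters of such genes, read 638, 956.3 and 888.2 in MALC and 454.6, 458.8 and 439.6 in suspension (0.83, adjusted p = 0.00295), and with the mean of its probe sets it was at 0.13 (adjusted p = 0.0862). SP1 rose by 0.23 (adjusted p = 0.0243) and lost its call when MALC 2, MALC 3, suspension 2 or suspension 3 was left out (adjusted p = 0.0603 to 0.108). MYC and GABPA did not pass the test (changes of -0.15 and 0.17, adjusted p = 0.191 and 0.152), and PPARGC1A was under the filter.

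The proteins of the cytosolic ribosome, which makes nearly all other proteins of the cell, did not share the fall. Of 55 tested genes, 1 was called lower and 22 higher, with a median of 0.07. RPL36 was higher by 0.31 (adjusted p = 0.000717) and RPL31 by 0.26 (adjusted p = 0.00387), while RPLP2, read by a dim probe set, was lower by 0.32 (adjusted p = 0.0231; 0.0726 without suspension 2 and 0.0598 without suspension 3). The rises depended on scaling, the variance model, the probe sets and single samples. With equal array medians 4 were higher (15.7% of all genes tested) and 2 lower, and the median was 0.00. With quantile normalization 13 were higher (18.4% of all genes). Without the trend in eBayes 5 were higher (19% of all genes), and with array weights 36 (26.5%). Without probe sets marked _s_at or _x_at, 8 were higher (18.6% of all genes) and 5 lower of 30 tested. Without MALC 2, MALC 3, suspension 2 or suspension 3, 8, 10, 13 and 12 were higher, and with samples 2 and 3 averaged 1 was. Of all genes tested, 13.6%, 14.1%, 15.4%, 15.2% and 8.94% were called higher in those fits. The counts without MALC 2 and without MALC 3 are near that share. Those with equal array medians, without the trend and with samples 2 and 3 averaged lie under it, and the other counts over it. The rises thus stood out from all genes in only some of these fits.

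**Figure D4:**
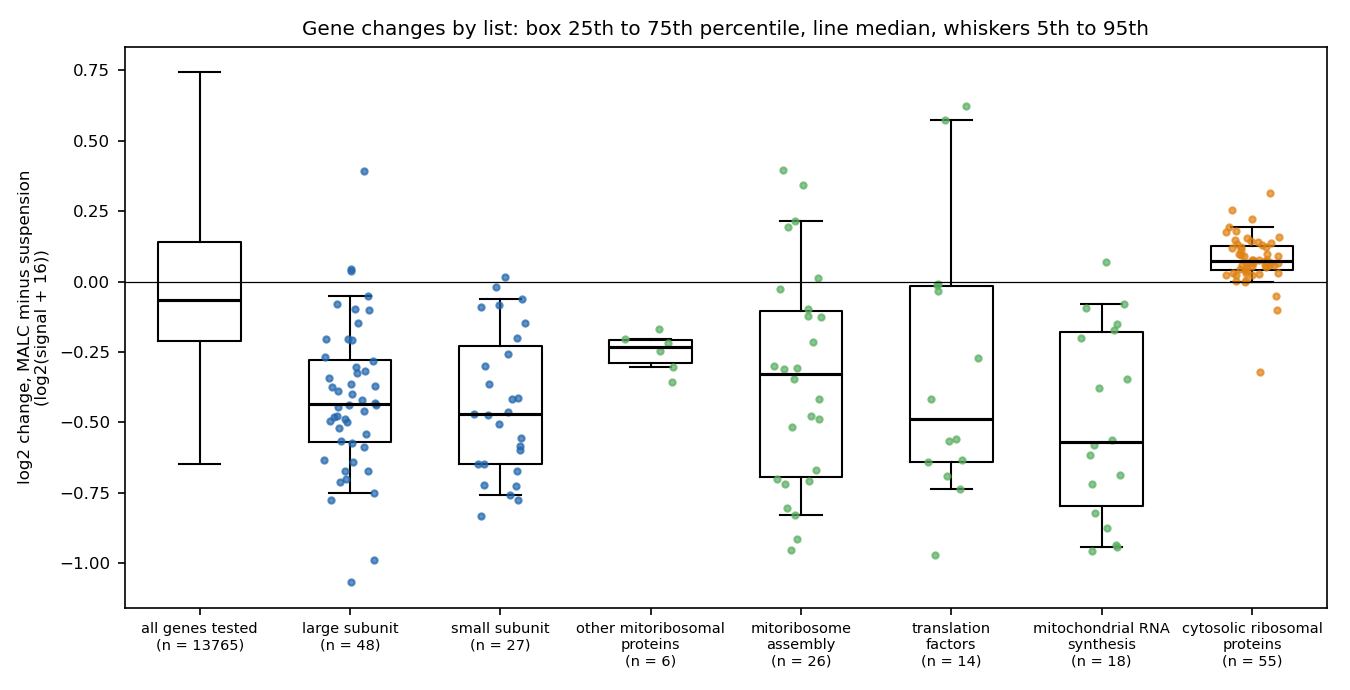
Changes in MALC against suspension on the log2(signal + 16) scale (y axis) for all genes tested and for 7 gene lists (x axis). KGD4 and NDUFAB1 are among the 6 genes listed as other mitoribosomal proteins. Points are genes, boxes span the 25th to 75th percentile with the median as a line, and whiskers the 5th to 95th. The medians of both subunits lie at -0.43 and -0.47, that of all genes at -0.06 and that of the cytosolic ribosomal proteins at 0.07.

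Many members start close to a neighbour that is read the other way. A protein-coding partner with its start within 1000 bases was found for 18 of 67 members (26.9%), against 13.7% of tested protein-coding genes. Starts were the first listed for each gene in the RefSeq promoter table, and pairs whose starts overlapped by a short stretch were also accepted. Of the 15 partners that were tested and are not members, 3 fell, 5 rose and 7 did not pass the test, with a median of 0.02. Among all genes tested, 23.7% were called lower and 19% higher, with a median of -0.06. Of the 9 members that fell and had such a partner, the partner fell for 2, rose for 3 and did not pass the test for 4. MRPL50 fell by 0.49 while its partner ZNF189, a zinc finger gene, rose by 0.77 (adjusted p = 0.00266), and MRPS18C fell by 0.60 while HELQ, a DNA helicase gene, rose by 0.33 (adjusted p = 0.00876).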

How the data were processed

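Total RNA of 6 samples (3 MALC, 3 suspension) was extracted with Trizol and labelled with biotin by Affymetrix's one-cycle procedure, per the labels' protocols. The deposited values were linear signal intensities for 54675 probe sets; the submitters' processing notes name MAS5 alone. Its version and role, and how arrays were normalized, are not given in the sources used here. If arrays were scaled to each other, a shift of all transcripts would not be seen. Groups and numbers came from the sample titles.

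Intensities were set to log2(signal + 16) with no further normalization. Of 54613 probe sets that are not controls, the 32768 whose mean log2 value reached the 40th percentile (signal 53.4) were kept, and the brightest with 1 symbol stood for its gene. Symbols came from the platform annotation, updated through a RefSeq table. MALC was tested against suspension in R 4.3.3 by limma 3.58.1, using lmFit and a trended eBayes with group as the only term (two-sided), with Benjamini-Hochberg adjustment over 13765 genes and a threshold of 0.05. Fold changes on this scale understate those of dim genes. Levels are compared within a probe set, not between them.

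The members, lists and rules were chosen with earlier results of these data known. Named by rule were the 10 largest falls and up to 10 rises past the threshold without overlap of the groups, the MRPS18 genes, MRPS30, MRPS36, MRPL12, members with opposite probe sets, up to 3 genes a list, and MYC, NRF1, GABPA, PPARGC1A, PPARGC1B, PPRC1, ESRRA and TFAM; other genes were named after their values were seen. Alternatives changed the offset, filter, scaling, probe set choice, variance model, samples and sample number as a block; the dimmest kept probe set and the fit without both samples numbered 1 were added after seeing the data.

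After subtraction of each group's mean, same-numbered samples correlated at 0.245 (1), 0.168 (2) and 0.14 (3), and numbers 2 and 3 crosswise at 0.14 and 0.175. All these values were over the limit of 0.1 set for pairing, but samples 2 and 3 correlated crosswise as much as by number. No label states what a number marks. The main test therefore took the samples as unpaired, and the number as a block was an alternative. The test was checked on simulated data with 50 changed genes at each size of change. It called 8% of log2 changes of 0.25, 52% of those of 0.5 and 94% of those of 1 or 2, with 11 false calls. The simulation changed far fewer genes than were called here, so its shares need not hold for these data. Its noise was drawn independently for each gene and array. It therefore cannot show false calls that come from spread shared by genes or from samples that are not independent.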

Additional observations from a re-analysis of the deposited data

How the results depend on the processing

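Across the alternatives, the medians of both subunits stayed below 0. Without probe sets marked _s_at or _x_at, 43 members were tested. Lower calls then numbered 17 (large) and 12 (small), and 1 small subunit gene (MRPS5) was higher. In that fit 21.6% of all genes tested were lower and 18.6% higher. With samples 2 and 3 averaged, 18 and 12 were lower and 0 large subunit genes higher, beside 8.08% and 8.94% of all genes. The large subunit's median was -0.33 with the mean of probe sets. With the dimmest kept probe set, chosen after seeing the data, medians were -0.32 (large) and -0.21 (small), and 2 and 1 genes were higher. The share of all genes with that choice was not worked out. The genes changed between MALC and suspension numbered 5877, against 8880 with array weights and 2344 with samples 2 and 3 averaged. Leaving out single samples gave 3993 to 6491 changed genes, with 30 to 40 large and 16 to 21 small subunit genes lower. Higher calls numbered 1 to 1 and 0 to 0, and medians were -0.47 to -0.37 and -0.56 to -0.39. In those fits 15.3% to 26.4% of all genes tested were called lower and 13.6% to 20.8% higher. With the sample number as a block, 39 large and 21 small subunit genes were lower, 1 and 0 higher, and 6396 genes changed. Of all genes tested, 25.8% were lower and 20.7% higher in that fit. Among members MRPL48 was added and no other call changed. In all, 10 of the 75 members changed sign in an alternative, among them MRPL23 and MRPL39, called lower in the report, which were at 0.083 and 0.28 without _s_at and _x_at probe sets. MRPS18B was at -0.053 with median centring, -5.61e-05 with the mean of probe sets, -0.0082 with array weights, -0.034 without MALC 1, -0.011 without suspension 3 and -0.0034 without both samples numbered 1 (leaving out single samples gave -0.034 to 0.047); with median centring MRPL45 was at -0.031 and MRPL33 at -0.023. With the mean of probe sets MRPS30 was at 0.048 and MRPS5 at 0.093, and MRPS5 rose by 0.60 without _s_at and _x_at probe sets. Of the other values of single genes, 67 lost and 5 gained a call and 1181 did neither. With 3 arrays a group, genes not called are not shown to be unchanged.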
